A study of Mus musculus with 5 samples.

Results

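The peaks described here are the 9556 regions of open chromatin that were called in embryonic (E14.5) hindlimb muscle of the mouse and that shared no base with any peak of 4 other libraries of the same study. They were selected on the peak calls alone, from 65624 peaks of the E14.5 library (14.6%) and 366900 peaks of the 5 libraries together. RNA and open chromatin (ATAC) were read from the same nuclei with the 10x Genomics multiome assay, in which a transposase cuts accessible DNA and the cut fragments are counted. Each group was 1 library of pooled hindlimb skeletal muscle on the C57bl6n background. The wild-type (WT) libraries were E14.5 (56 hindlimbs), E18.5 (14), postnatal day 5 (P5, 8) and adult (4). The other was Cacna1s knockout (KO) muscle at E18.5 (26 hindlimbs), in which a cassette replaces the coding region of Cacna1s, the voltage sensor of the muscle fiber membrane, in every cell. Nuclei had been sorted on PCM1, a marker of myonuclei, and nuclei with and without PCM1 were mixed in equal volumes, so the mix of nuclei in a library was set by the sort. Each group having a single library, differences carry no replicate check and no test is given. Every interval covers counting error only.

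Accessible regions away from promoters often act as enhancers, to which transcription factors bind and from which they raise or lower the transcription of genes on the same chromosome, sometimes over long distances. At E14.5 the hindlimb forms its first, embryonic muscle fibers by fusion of myoblasts, while limb mesenchyme lays down tendon, connective tissue and the muscle pattern. Enhancers used in this window can close again once fibers mature.

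The presence of a peak call, not a level, set the rule. ATAC counts exist only for the peaks of each library itself, so the files give no level at these 9556 positions in the other libraries, and a missing call there is not a measurement of closed chromatin. The E14.5-only peaks were shallow, with a median of 102 ATAC counts over the 4812 E14.5 nuclei kept (5th to 95th percentile 46 to 240.2, highest 929), against 189 over all E14.5 peaks and 321 over the 31654 E14.5 peaks shared with all 4 other libraries. They held 5.061% of the ATAC counts of the library. Their width had a median of 874 bp, against 883 bp for all E14.5 peaks. A count was found in a median of 51 nuclei per E14.5-only peak and 94 per E14.5 peak.

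The E14.5 library overlapped most with WT E18.5, its neighbor in time and also the library with the most peaks (91265). Of its peaks, 79.59% overlapped a peak of E18.5, 63.69% of P5, 60.13% of adult and 67.76% of KO muscle. The same rule gave 13808 peaks for E18.5 (15.1% of its 91265 peaks) and 3637 for P5 (5.43% of 67013). It gave 20504 for adult (25.3% of 81124) and 3511 for KO muscle (5.67% of 61874). The E14.5 share was 14.6%, near that of E18.5. The libraries differed in depth, with medians per kept nucleus of 2862.5 ATAC counts for E14.5, 5109 for E18.5, 3952 for P5, 6230.5 for adult and 2530 for KO. The part of depth and of the number of peaks in these values was not tested. At the edge of the rule, 269 E14.5-only peaks lay within 100 bp of a peak of another library (median 115 counts), and 181 E14.5 peaks outside the set shared at most 100 bp with one (median 117 counts). The median gap to the nearest peak of another library was 4621 bp. It was at most 500 bp for 1143 E14.5-only peaks (12%) and over 10 kb for 2798 (29.3%).

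In the other libraries, the files list between 3621 and 5407 barcodes, against 4990 at E14.5, and any pair of libraries shared 17 to 47 barcodes. In KO muscle the nuclei rich in Ttn RNA held 7 Cacna1s UMIs (0.743 CPM), against 200 CPM in WT muscle at E18.5.

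Sequence could be read where a RefSeq promoter window (GRCm38.p6, 250 bases before to 50 after the gene start) lay whole inside an E14.5-only peak. This held for 167 windows of 153 genes in 150 peaks, of 32851 windows listed. Of these 150 peaks, 30 were higher in Ttn nuclei and 37 in Pdgfra nuclei, the sets of nuclei defined further on. Of all E14.5 peaks 26.6% and 17.3% were, and of all E14.5 promoter peaks 8.33% and 12.1%. The windows below belong to genes of the slow and early sarcomere (Myh7, Tnnc1, Tpm3), to Kremen2, a receptor in the Wnt pathway, to Kctd15, which holds the second highest count of all E14.5-only peaks, and to Tmem151b, whose peak was higher in Pdgfra nuclei. They were picked after their counts were seen. Capitals mark the E-box CAGCTG (bound by myogenic factors), CATTCC (bound by TEAD factors) and GGGGCGG (bound by SP and KLF factors), on either strand.
Myh7, chr14:54994577-54994876, minus strand: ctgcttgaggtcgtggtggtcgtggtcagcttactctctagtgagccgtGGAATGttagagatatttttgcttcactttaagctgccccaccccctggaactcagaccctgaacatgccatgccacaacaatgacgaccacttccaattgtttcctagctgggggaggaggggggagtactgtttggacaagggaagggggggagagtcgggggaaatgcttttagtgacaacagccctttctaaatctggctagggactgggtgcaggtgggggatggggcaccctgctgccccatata
Tnnc1, chr14:31208062-31208361, plus strand: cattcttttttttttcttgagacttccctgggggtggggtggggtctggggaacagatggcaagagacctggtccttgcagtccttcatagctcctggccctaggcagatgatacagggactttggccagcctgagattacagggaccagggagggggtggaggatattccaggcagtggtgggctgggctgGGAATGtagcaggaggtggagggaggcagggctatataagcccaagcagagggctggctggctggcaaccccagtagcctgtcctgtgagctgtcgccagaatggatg
Tpm3, chr3:90072401-90072700, plus strand: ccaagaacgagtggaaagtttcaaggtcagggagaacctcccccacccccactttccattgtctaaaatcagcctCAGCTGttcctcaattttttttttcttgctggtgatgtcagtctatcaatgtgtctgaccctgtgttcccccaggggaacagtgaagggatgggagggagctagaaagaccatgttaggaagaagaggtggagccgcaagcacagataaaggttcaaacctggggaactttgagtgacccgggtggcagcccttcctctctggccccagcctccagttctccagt
Kremen2, chr17:23745780-23746079, minus strand: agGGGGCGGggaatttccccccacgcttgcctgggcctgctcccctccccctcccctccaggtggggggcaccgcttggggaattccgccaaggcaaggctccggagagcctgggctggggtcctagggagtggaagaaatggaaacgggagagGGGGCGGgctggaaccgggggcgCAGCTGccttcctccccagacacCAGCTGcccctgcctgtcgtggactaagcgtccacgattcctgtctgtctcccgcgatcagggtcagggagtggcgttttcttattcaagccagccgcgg
Kctd15, chr7:34654349-34654648, minus strand: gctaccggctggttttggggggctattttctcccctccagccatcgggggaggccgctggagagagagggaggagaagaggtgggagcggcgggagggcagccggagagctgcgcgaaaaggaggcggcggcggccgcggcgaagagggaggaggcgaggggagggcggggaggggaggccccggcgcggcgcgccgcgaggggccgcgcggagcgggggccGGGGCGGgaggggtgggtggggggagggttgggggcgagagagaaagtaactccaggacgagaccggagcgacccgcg
Tmem151b, chr17:45549628-45549927, minus strand: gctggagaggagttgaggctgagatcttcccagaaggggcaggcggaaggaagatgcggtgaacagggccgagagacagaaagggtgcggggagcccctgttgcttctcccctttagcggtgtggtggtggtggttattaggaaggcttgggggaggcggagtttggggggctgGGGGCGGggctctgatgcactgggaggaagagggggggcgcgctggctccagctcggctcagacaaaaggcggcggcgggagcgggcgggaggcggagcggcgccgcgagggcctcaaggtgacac

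The promoter windows inside E14.5-only peaks were poor in CpG for open promoters. They held a median of 6 CpG in 300 bases and 53% GC, against 22 CpG and 62.3% GC in the 12626 windows inside any E14.5 peak and 7 CpG and 52.7% GC in all 32817 windows scanned. The E-box CAGCTG was in 44 of the 167 windows (26.3%), against 16.5% of windows inside any E14.5 peak and 16.3% of all windows. CAGATG, another E-box, was in 25.7%, against 10.9% and 17.2%. CANNTG, which includes both, was in 79%, against 62.1% and 72.3%. CATTCC was in 19.2%, against 11.5% and 14.7%. GGGGCGG was in 22.8%, against 46.6% and 23.2%. The window of Kremen2 held 2 of the CAGCTG matches and that of Myh7 held none. Less common were TAAAAATA (a MEF2-type site, 2.4% against 1.26% and 2.72%), TGANTCA (AP-1, 7.78% against 4.19% and 7.81%), AGATAA (bound by GATA factors, 10.8% against 4.85% and 11.2%), TGTGGT (RUNX, 15.0% against 11.4% and 16.8%) and TTGGCA (an NFI-type site, 12.6% against 10.6% and 14.1%). The homeodomain core TAATTA was in 5 windows (2.99%, against 2.09% and 5.3%), TAATCC in 8.98% (against 4.92% and 7.06%), AACAAAG, bound by SOX factors, in 4.19% (against 3.22% and 5.85%) and ATTTGCAT, the octamer, in 1 window (0.599%, against 1.36% and 1.74%). Both strands were searched, and windows of 1 gene can overlap. A match is a string of letters, not a bound site.

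E14.5-only peaks lay far from gene starts. The files give each gene an interval that spans its transcript starts, 1 base long for 61.1% of the 32272 genes with a position. Of the E14.5-only peaks 67.1% lay over 10 kb from the nearest such interval, against 50.1% of all E14.5 peaks and 36.3% of those shared with all 4 other libraries. The median gap was 22697 bp for E14.5-only peaks, 10065 bp for all E14.5 peaks and 1870 bp for the shared ones. An interval was overlapped by 1153 E14.5-only peaks (12.1%), against 28.9% of all E14.5 peaks and 44.1% of the shared ones. In 136 of these 1153 the interval was a single base. At most 1 kb away were a further 267 (2.79%), 1722 lay up to 10 kb away (18%), 4899 up to 100 kb (51.3%) and 1515 beyond 100 kb (15.9%, against 8.36% of all E14.5 peaks). The farthest was 1146519 bp away.

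**Figure D1:**
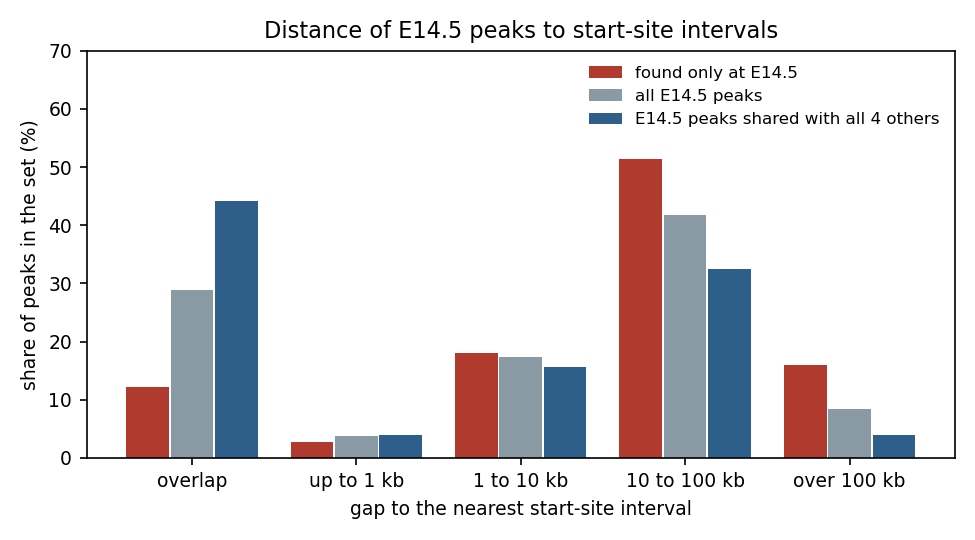
Share of peaks (percent, vertical axis) in 5 classes of distance to the nearest start-site interval, for peaks found only at E14.5, all E14.5 peaks, and E14.5 peaks shared with all 4 other libraries. E14.5-only peaks hold the smallest share of overlaps (12.1%) and the largest shares from 10 to 100 kb (51.3%) and beyond 100 kb (15.9%).

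By the GENCODE vM21 annotation of GRCm38, 757 E14.5-only peaks (7.92%) lay within 1 kb of a transcript start, against 27.7% of all E14.5 peaks and 44.9% of the shared ones. By their midpoint, 4539 of the rest were intronic (47.5%, against 35.6% of all E14.5 peaks) and 3921 intergenic (41%, against 33.2%). Coding exons held 138 (1.44%), UTR exons 153 and noncoding exons 48. Among the numbered chromosomes and X, the E14.5-only share of E14.5 peaks ran from 12.4% on X to 16% on chromosome 5. The median gap from an E14.5-only peak to the next was 126 kb, and 9.06% of neighboring pairs lay within 10 kb. For all E14.5 peaks these values were 14.2 kb and 40.4%. A set of 14.6% of the peaks lies farther apart by its size alone, so no trait is read from this. Of 2464 windows of 1 Mb with an E14.5 peak, 2184 held an E14.5-only peak, with a median of 3, and 127 held 10 or more. The window with the most, chr17:67000001-68000000, held 18 of 55 E14.5 peaks, most of them at Ptprm, a receptor-type tyrosine phosphatase, and its neighbor Gm9984. The next, chr2:178000001-179000000, held 17 of 49, nearest to Phactr3 (8) and Cdh26 (6). The window chr11:65000001-66000000 held 16 of 33, nearest mainly to Map2k4.

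To ask in which cells the E14.5-only peaks were open, E14.5 nuclei were split by RNA. Ttn nuclei had at least 1% of their UMIs in Ttn, the giant spring protein of the sarcomere, and were taken as nuclei of muscle fibers. Pdgfra nuclei had at least 1 UMI of Pdgfra, a growth factor receptor of mesenchymal cells. There were 1788 Ttn nuclei and 1306 Pdgfra nuclei, and 79 that met both definitions were left out. All 8 myonuclear markers were higher in Ttn nuclei (27961 CPM in sum, against 1320 CPM in Pdgfra nuclei). All 9 mesenchymal markers were higher in Pdgfra nuclei (217 CPM in Ttn nuclei, against 5051 CPM). In the nuclei of neither set, mesenchymal markers summed to 2690 CPM and myonuclear markers to 1885 CPM. Ttn and Pdgfra count in these sums and chose the nuclei. Markers of other cell types were present in both sets. Progenitor markers summed to 418 CPM in Ttn nuclei, 157 CPM in Pdgfra nuclei and 557 CPM in the nuclei of neither set, and 2 of the 6, Chodl and Myf5, were highest in Ttn nuclei. Smooth muscle and pericyte markers summed to 175, 175 and 167 CPM in the same order of sets. Of these 4 markers, 3 were higher in Pdgfra than in Ttn nuclei, such as Pdgfrb (62.9 CPM, against 2.03 CPM). The other, Abcc9, was higher in Ttn nuclei (133 CPM, against 62.9 CPM). Cartilage markers were at 9.83, 86 and 83.4 CPM, and erythroid markers at 32.3, 50.5 and 35.2 CPM. Endothelial markers (12.9, 85.5 and 355 CPM) and macrophage markers (7.59, 6.02 and 101 CPM) were highest in the nuclei of neither set. Of the Schwann markers, Erbb3 was at 76.9, 6.02 and 33.3 CPM and Sox10 at 0.427, 0.837 and 25.8 CPM. Their part in the peak counts was not tested.

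E14.5-only peaks were weighted to muscle nuclei. Ttn nuclei had 652633 of their 10317640 ATAC counts in E14.5-only peaks (6.33%, exact binomial 95% interval 6.31 to 6.34%), and Pdgfra nuclei had 182195 of 4868170 (3.74%, 3.73 to 3.76%). The 1639 nuclei of neither set had 3.9%. Within the last, nuclei with a UMI of Pax7, the gene of muscle stem cells and progenitors, had 3.63% (193 nuclei), and those with Cdh5 or Pecam1, genes of endothelium, 3.48% (124 nuclei). Per nucleus with at least 1000 ATAC counts, the median share was 6.26% in 1387 Ttn nuclei (25th to 75th percentile 5.62 to 7.03%) and 3.5% in 872 Pdgfra nuclei (2.9 to 4.21%). These middle ranges did not overlap, but the full distributions over nuclei did. Single Pdgfra nuclei reached shares of 8 to 8.25%, and Ttn nuclei began at 3.25 to 3.5%. Ttn nuclei were also deeper, with a median of 4499 ATAC counts, against 2196.5 in Pdgfra nuclei.

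**Figure D2:**
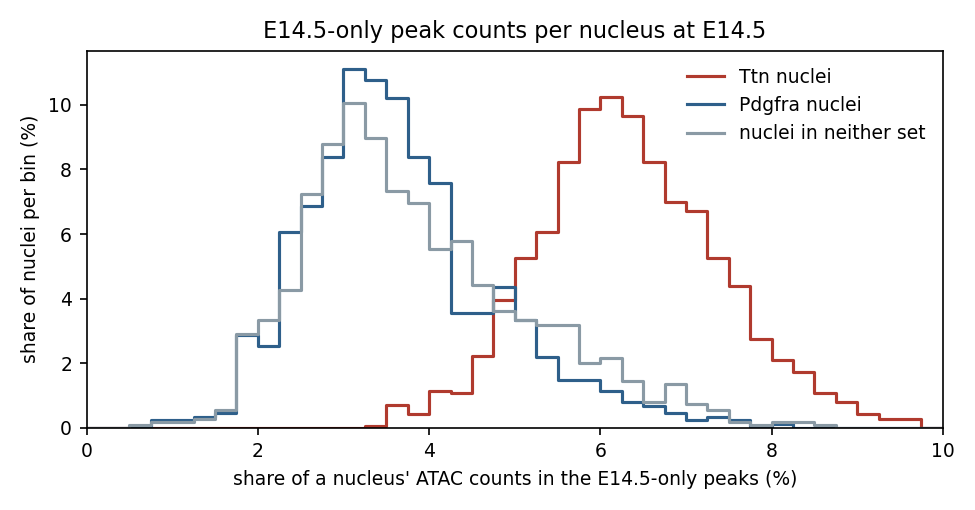
Share of each nucleus' ATAC counts that fell in E14.5-only peaks (percent, horizontal axis, bins of 0.25) against the share of nuclei per bin (vertical axis), for E14.5 nuclei with at least 1000 ATAC counts. Ttn nuclei lie mostly to the right of Pdgfra nuclei and of nuclei in neither set, with overlap and with medians of 6.26%, 3.5% and 3.59%.

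Peak by peak, counts were scaled to the ATAC counts of each set, and a peak with at least 20 counts over both sets was taken as measured. A peak was called at a ratio of 2 or more in either direction. Of 9346 E14.5-only peaks measured, 4617 were higher in Ttn nuclei (49.4%), where 26.6% of all 65295 E14.5 peaks measured were. The counting interval of the ratio lay above 1 in 4559 of them. In the other direction 1474 were higher in Pdgfra nuclei (15.8%), where 17.3% of all E14.5 peaks were, a share near the background. With a minimum of 50 counts this share was 9.58%, against 15.1% of all E14.5 peaks. The other 3255 (34.8%) lay within 2-fold, and 210 had too few counts. The median log2 ratio, Ttn over Pdgfra nuclei, was 0.97 for E14.5-only peaks, -0.04 for all E14.5 peaks and -0.19 for those shared with all 4 libraries. The difference was also there between peaks of like depth. Between the 25th and 75th percentiles of the E14.5-only counts (75 to 142), 49.5% of 4860 E14.5-only peaks were higher in Ttn nuclei, against 20.9% of 13555 other E14.5 peaks of the same counts, and 15.1% against 29.3% were higher in Pdgfra nuclei. Of the counts of E14.5-only peaks 58% came from Ttn nuclei, against 52.4% for peaks shared with 1 other library, 54.4% with 2, 49.1% with 3 and 44.3% with all 4.

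**Figure D3:**
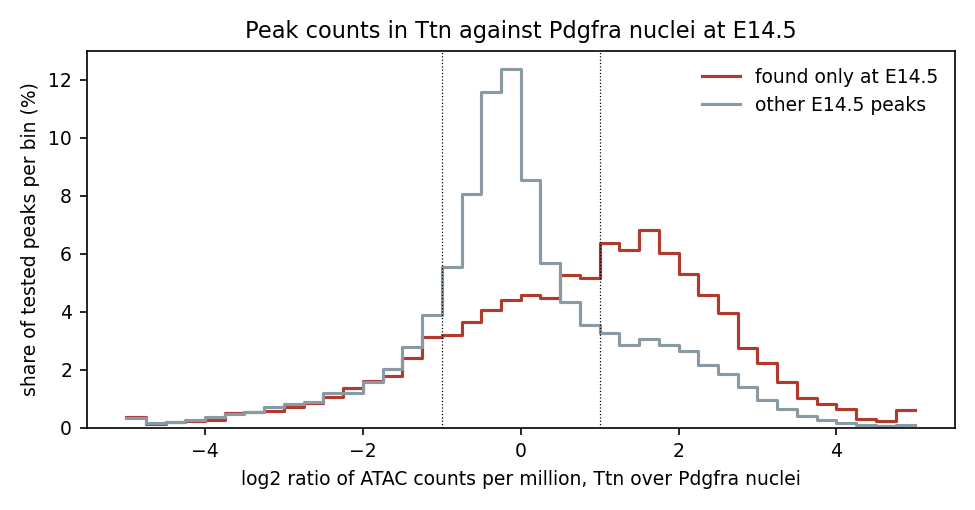
Distribution of the log2 ratio of scaled ATAC counts, Ttn over Pdgfra nuclei at E14.5 (horizontal axis, bins of 0.25), as percent of measured peaks per bin, for 9346 E14.5-only peaks and 55949 other E14.5 peaks. Dotted lines mark 2-fold in each direction. E14.5-only peaks are shifted to the right, with 49.4% beyond 2-fold towards Ttn nuclei, against 22.8% of the other peaks.

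In each of the 5 distance classes the share higher in Ttn nuclei was above that of all E14.5 peaks. Among E14.5-only peaks that overlapped a start-site interval 45.6% were higher in Ttn nuclei (12.9% of all E14.5 peaks there), and among those beyond 100 kb 53.5% were (37.1%). Within 1 kb it was 30.3% (17.3%), up to 10 kb 50.1% (30%) and up to 100 kb 49.8% (33.4%). By annotation, 247 of 750 promoter peaks were higher in Ttn nuclei (32.9%, against 8.33% of all E14.5 promoter peaks) and 145 higher in Pdgfra nuclei (19.3%, against 12.1%). Intronic ones had 2409 of 4466 higher in Ttn nuclei (53.9%, against 38%). Intergenic ones had 1796 of 3798 (47.3%, against 29.4%). Across the 19 numbered chromosomes and X, the share higher in Ttn nuclei ran from 43.9% on chromosome 4 to 55.5% on chromosome 8.

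The E14.5-only peaks furthest towards Ttn nuclei were ranked by the near bound of the counting interval. First was chr13:52613011-52613877, in an intron of Syk, a tyrosine kinase best known from blood cells, with 145 counts in Ttn nuclei and 0 in Pdgfra nuclei. Its ratio was 22.8 with 0 set to 3 counts over the set, which is not a lower limit: the exact 95% interval began at 18.3. Other ratios with no count in a set also use 3 counts, and the start of the 95% interval stands beside them. A count was found in 3.64% of Ttn nuclei, and Syk RNA itself was low in both sets (2.35 CPM in Ttn nuclei, 1.51 CPM in Pdgfra nuclei). Second was a peak on chromosome 18 in an intron of Alpk2, an alpha kinase gene, with 169 counts in Ttn nuclei and 1 in Pdgfra nuclei, a ratio of 79.7 (95% interval 14.1 to 3168).

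Of the other 8 peaks of this ranking, 7 also had no count in Pdgfra nuclei. The peak chr16:59921546-59922544, in an intron of Epha6, an ephrin receptor, had 108 counts in Ttn nuclei and a ratio of 17 (interval from 13.6). The peak chr2:70151744-70152600, in Myo3b, an unconventional myosin, had 106 counts and a ratio of 16.7 (from 13.3). The peak chr13:94442781-94443664, in Ap3b1, a subunit of a vesicle adaptor complex, had 99 counts and a ratio of 15.6 (from 12.4). Each was in 2.57 to 2.8% of Ttn nuclei. The peak chr10:119547723-119548537 lay in Grip1, a synaptic scaffold gene, with 90 counts and a ratio of 14.2 (from 11.3). Intergenic peaks made up the rest. One was nearest to Trpc6, a calcium-permeable channel (chr9:8514150-8514990, 87 counts, ratio 13.7, from 10.9). Others were nearest to 1700009C05Rik (98 counts), Gm49113 (88 counts) and Tfap2d, a transcription factor of the AP-2 family (127 counts, against 1 in Pdgfra nuclei). The peak nearest to Gm49113 lay 338742 bp from any peak of another library.

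Towards Pdgfra nuclei the first peak was chr12:34273307-34274303, in an intron of Hdac9, with 0 counts in Ttn nuclei and 62 in Pdgfra nuclei. Its ratio towards Pdgfra nuclei was 43.8 with 0 set to 3 counts over the set (the 95% interval began at 34.6). Hdac9 encodes a histone deacetylase, and its RNA was higher in Ttn nuclei (560 CPM, against 259 CPM). The peak chr3:50249630-50250475, in a gene span of Slc7a11, a cystine transporter, had 2 counts in Ttn nuclei and 78 in Pdgfra nuclei, 82.7-fold higher in Pdgfra nuclei (95% interval 22.1 to 695).

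Several of this side lay near genes of mesenchyme and bone. The peak chr2:133748239-133749094 lay 196079 bp from Bmp2, a bone morphogenetic protein, with 2 counts in Ttn nuclei and 53 in Pdgfra nuclei (56.2-fold higher in Pdgfra nuclei). The peak chr15:85188017-85188878 was nearest to Fbln1, a matrix glycoprotein, with 3 and 74 counts. The peak chr14:67383338-67384237, in an intron of Ebf2, a transcription factor of mesenchymal and fat precursors, had 7 counts in Ttn nuclei and 102 in Pdgfra nuclei (30.9-fold higher in Pdgfra nuclei). Others lay in Dgki (1 and 48 counts), at Nav1 (3 and 63) and in Oca2 (5 and 82), and nearest to Lurap1l (0 and 28). The Ebf2 and Oca2 peaks lay 35 and 56 bp from a peak of another library, so they sit at the edge of the rule.

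The 10 E14.5-only peaks with most counts were mainly at promoters, 7 of them by the annotation. A chromosome 18 peak nearest to Gm29994 led, with 929 counts. It had 479 in Ttn nuclei and 189 in Pdgfra nuclei (ratio 1.2, 95% interval 1.01 to 1.42) and directly abuts a peak of another library. The promoter peak of Kctd15, a repressor of neural crest formation, had 297 and 185 counts (ratio 0.757). The promoter peak of Myh7, the slow and cardiac myosin heavy chain, at chr14:54994313-54995239, had 556 counts in Ttn nuclei and 62 in Pdgfra nuclei, a ratio of 4.23 (3.25 to 5.59). It was found in 13.7% of Ttn nuclei and 2.07% of Pdgfra nuclei. An intronic peak of Casz1, a zinc finger factor of heart and muscle, reached 4.29 (464 and 51 counts), and the peak at Kremen2 and 9530082P21Rik reached 3.45 (482 and 66 counts). Peaks near Gm29417 (ratio 2.48) and Cirbp (2.18) were also called towards Ttn nuclei. The Casz1 and Cirbp peaks lay 88 and 82 bp from a peak of another library, also at the edge of the rule. Fbxl19 was called towards Pdgfra nuclei (182 and 194 counts, 2.26-fold higher in Pdgfra nuclei), and those of Gamt (1.8) and Plekhg2 (1.09) were within 2-fold.

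The E14.5-only peaks had 6424 nearest genes, of which 4479 had 1 such peak, 1273 had 2, 401 had 3, 151 had 4 and 120 had 5 or more. Fgfr2, a fibroblast growth factor receptor, had 17, but its annotated interval spans 2857160 bp, the longest in the files, and it was nearest to 119 E14.5 peaks in all. Kalrn, a guanine nucleotide exchange factor best known from neurons, followed with 14 of 33, then Rbfox1, a splicing factor of muscle and brain (12 of 30), Camta1, a transcription activator (11 of 52), and Grip1 (10 of 21), Brinp1, a neural gene (10 of 13), Auts2, a chromatin regulator of neurons (10 of 38), and Zfhx3, a homeodomain zinc finger factor (10 of 27). Kif26b, a kinesin family member of kidney development, had 9 of 20 and Dlgap2, a postsynaptic scaffold, 9 of 16. Start-site intervals of Camta1 (753301 bp), Rbfox1 (875173 bp), Auts2 (1064800 bp) and Zfhx3 (772001 bp) were also wide, whereas that of Brinp1 is 1 base. By gene span, leaving aside the read-through model Gm20388 (27 of 293), Csmd1 stood out with 15 of 20 E14.5 peaks (13 higher in Ttn nuclei), as did Ptprm with 15 of 33 (10 higher in Ttn nuclei).

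These genes differed in the nuclei that carried their peaks. At Camta1, 9 of 11 were higher in Ttn nuclei and none in Pdgfra nuclei, at ratios up to 15.4. At Rbfox1, 9 of 12 were higher in Ttn nuclei and 1 in Pdgfra nuclei. Its 5 peaks between chr16:6171071 and chr16:6334042, upstream of the start-site interval, had 69, 118, 106, 76 and 72 counts in Ttn nuclei, against 4, 9, 11, 4 and 7 in Pdgfra nuclei, so all 5 leaned one way. At Brinp1, 7 of 10 were higher in Ttn nuclei, although Brinp1 RNA was lower there (6.63 CPM, against 57.2 CPM in Pdgfra nuclei). Its strongest, chr4:68773402-68774343, had 117 and 1 counts. At Zfhx3 the order was the other way: 6 of 10 were higher in Pdgfra nuclei and 1 in Ttn nuclei, and Zfhx3 RNA was 102 CPM in Ttn nuclei, against 771 CPM in Pdgfra nuclei.

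Kalrn, Kif26b and Fgfr2 held peaks of both kinds. At Kalrn 7 were higher in Ttn nuclei and 2 in Pdgfra nuclei. At Kif26b, 5 were higher in Ttn nuclei and 3 in Pdgfra nuclei, and both kinds alternated over a stretch of the gene. Between chr1:178716212 and chr1:178800632, the counts in Ttn nuclei were 128, 32, 209 and 36, against 7, 39, 15 and 39 in Pdgfra nuclei. At Fgfr2, 10 were higher in Ttn nuclei and 4 in Pdgfra nuclei, the furthest towards Pdgfra nuclei being chr7:130277412-130278219 (12 and 36 counts). Some neighbors, such as 2 pairs at Fgfr2 and 3 peaks at Zfhx3, lie under 1 kb apart and may not be separate regions.

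**Figure D4:**
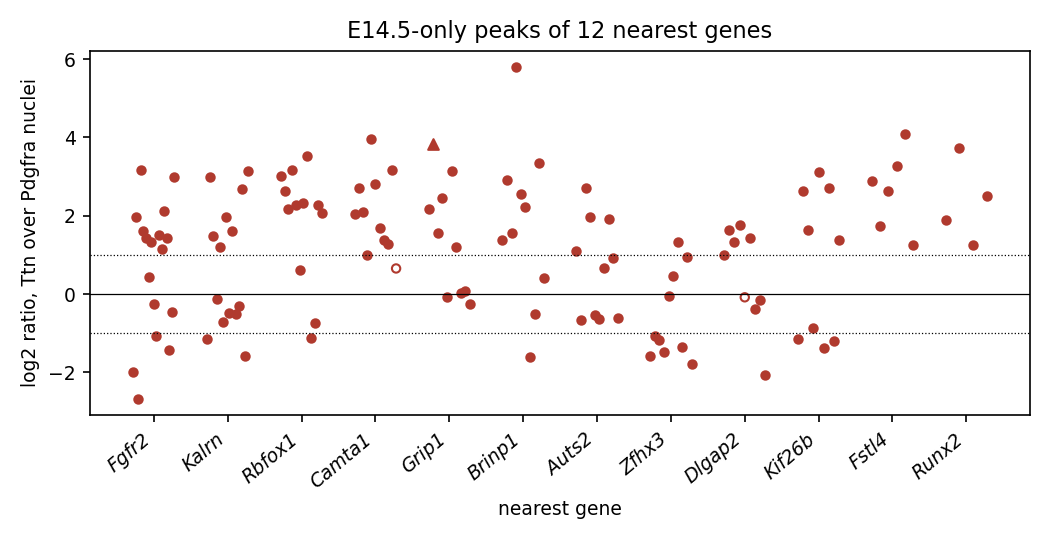
Log2 ratio of scaled ATAC counts, Ttn over Pdgfra nuclei (vertical axis), for each E14.5-only peak of 12 nearest genes (horizontal axis), in order of position within a gene. Open circles had under 20 counts, and dotted lines mark 2-fold. The triangle had no count in Pdgfra nuclei and was drawn with 3 counts set there, which is not a lower limit. All 6 peaks of Fstl4 and all 4 of Runx2 lie above the upper line, and 6 of 10 of Zfhx3 lie below the lower one.

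Gene lists were described by how many E14.5-only peaks had a list gene as nearest gene, where 14.6% of all E14.5 peaks were E14.5-only. Their sides are read against all E14.5-only peaks measured, of which 49.4% were higher in Ttn nuclei and 15.8% in Pdgfra nuclei, with a median log2 ratio of 0.97. Developmental sarcomere genes, the embryonic, neonatal and slow isoforms that early fibers use, had 6 of 40 E14.5 peaks (15%), at 5 of 12 genes, and all 6 were higher in Ttn nuclei (median log2 ratio 2.14). They were 2 at Tnni1, slow troponin I (314 and 29 counts, ratio 5.11, and 278 and 47 counts, ratio 2.79), and 1 each at Tnnc1, slow troponin C (333 and 34 counts, ratio 4.62), Myh7, Myh8, the perinatal myosin heavy chain (152 and 13 counts, ratio 5.52), and Acta2, a smooth muscle actin also made by young muscle fibers (92 and 20 counts, ratio 2.17), which is named after its values were seen. The 2 Tnni1 peaks lay 44 and 113 bp from a peak of another library, at or near the edge of the rule. The genes for junction and neural type had 24 of 125 (19.2%), at 11 of 18 genes. Of these 24, 16 were higher in Ttn nuclei (66.7%) and 1 in Pdgfra nuclei (4.17%). All 6 at Fstl4, a follistatin-like secreted protein gene, were higher in Ttn nuclei at ratios of 2.36 to 17. The 1 higher in Pdgfra nuclei lay at Robo1, an axon guidance receptor (12 and 65 counts).

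Myogenic regulators, which specify and drive muscle, had 17 of 157 (10.8%), at 10 of 22 genes, with 7 higher in Ttn nuclei (41.2%) and 2 in Pdgfra nuclei (11.8%), shares near or below those of all E14.5-only peaks. The 2 towards Pdgfra nuclei lay 314570 bp from Eya1, a transcriptional cofactor of muscle progenitors (8 and 49 counts), and 122758 bp from Sox11 (21 and 38 counts). At Elk3, an ETS factor, an intronic peak had 154 and 18 counts (ratio 4.04). Both peaks nearest to Eya2 were within 2-fold. Limb patterning genes, which lay out the limb axes, had 20 of 108, at 12 of 40 genes, and leaned the other way: 2 were higher in Ttn nuclei (10%) and 9 in Pdgfra nuclei (45%), with a median log2 ratio of -0.61. Both at Ptch1, the Hedgehog receptor, were higher in Pdgfra nuclei (22 and 61 counts, and 40 and 79 counts), as were 2 of 3 at Bmp2. Both at Prrx2, a limb mesenchyme homeobox gene, were within 2-fold (ratios 1.47 and 1.67), and 1 of 3 at Alx4 was higher in Ttn nuclei.

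Cartilage and bone genes had the largest E14.5-only share of the lists, 21 of 93 (22.6%), at 9 of 16 genes, with 10 higher in Ttn nuclei (47.6%, near the share of all E14.5-only peaks) and 5 in Pdgfra nuclei (23.8%). Of these 10, 4 lay at Runx2, the main transcription factor of bone formation, where all 4 were higher in Ttn nuclei (63, 85, 20 and 48 counts, against 8, 3, 4 and 4 in Pdgfra nuclei). Runx2 RNA was 26.2 CPM in Ttn nuclei, against 261 CPM in Pdgfra nuclei. These 4 peaks lie within or by Supt3, which overlaps Runx2. At Sox6, a factor of cartilage and of muscle fiber type, 3 of 4 were higher in Ttn nuclei, up to 7.28-fold (108 and 7 counts). At Col9a1, a cartilage collagen, 1 was higher in Pdgfra nuclei (8 and 44 counts), and the 2 higher in Ttn nuclei lay in introns of Col19a1, another collagen. Tendon and connective tissue genes had 20 of 155 (12.9%), with 5 higher in Ttn nuclei (25%) and 8 in Pdgfra nuclei (40%), 6 of the 8 at Zfhx3. Both at Scx, the tendon factor, were within 2-fold (134 and 53 counts, and 208 and 84 counts). A peak 8456 bp from Col1a2, a type I collagen of fibroblasts, had 102 and 10 counts (ratio 4.81), although Col1a2 RNA was 69.4 CPM in Ttn nuclei, against 908 CPM in Pdgfra nuclei. Cell cycle genes had 1 of 26 (3.85%), by Cenpf.

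RNA in the same nuclei gave a readout that the peak rule did not use. A gene with at least 20 UMIs over both sets was measured. Of 3622 nearest genes measured, 758 had RNA at least 2-fold higher in Ttn nuclei (20.9%), where 13.2% of all 14952 genes did, and 1031 had it higher in Pdgfra nuclei (28.5%), where 28.4% of all genes did. Genes with peaks on 1 side only were split. Where the E14.5-only peaks of a gene were called only towards Ttn nuclei, 28.6% of 1937 genes had RNA higher in Ttn nuclei and 19.7% in Pdgfra nuclei. Where they were called only towards Pdgfra nuclei, 8.53% of 469 had RNA higher in Ttn nuclei and 52.2% in Pdgfra nuclei. Counted by peak, 31.3% of E14.5-only peaks higher in Ttn nuclei with a measured nearest gene had its RNA higher there, against 38.7% for other E14.5 peaks higher in Ttn nuclei. Towards Pdgfra nuclei the shares were 49.3% for E14.5-only peaks and 52.8% for other E14.5 peaks. Many peaks therefore stood by a nearest gene whose RNA did not lean with them, such as those at Brinp1, Runx2 and Col1a2.

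To ask whether the nearest genes were used mainly at E14.5, their RNA was compared across the 5 libraries in the same 2 sets of nuclei. The Ttn nuclei numbered 1788 at E14.5 and from 886 (KO) to 4399 (adult) in the others, and the Pdgfra nuclei 1306 at E14.5 and from 135 (adult) to 1437 (E18.5). In Ttn nuclei 435 of 3588 nearest genes measured (12.1%) were at least 2-fold above each other library at E14.5, where 5.73% of all 15113 genes were. In the other direction 136 (3.79%) were 2-fold below each other library, where 5.13% of all genes were. Among genes whose E14.5-only peaks were called only towards Ttn nuclei, 283 of 1949 were above and 55 below. Among those called only towards Pdgfra nuclei, 36 of 434 were above and 26 below. In Pdgfra nuclei 134 of 3455 nearest genes (3.88%) were above each other library at E14.5, where 1.93% of all genes were, and 109 (3.15%) below, where 3.84% were. All these comparisons share the E14.5 library.

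Genes with most E14.5-only peaks that were above each other library in Ttn nuclei included Kif26b, whose RNA was 580 CPM at E14.5 (95% interval 564 to 595), against 49.7 at E18.5, 17.8 for P5, 41 for adult muscle and 36.5 for KO, or 11.7-fold above the next highest library. Grip1 was 4354 CPM at E14.5, against 1152 at E18.5, 150 for P5, 0.867 for adult muscle and 1243 for KO. It was highest at E14.5 and lowest in adult. Chrm3, a muscarinic acetylcholine receptor with 8 of 18 E14.5-only peaks, was 1863 CPM at E14.5, against 79.5 at E18.5, 80 for P5, 3.98 for adult muscle and 172 for KO. Dpp10, a potassium channel auxiliary protein (8 of 11), was 140 CPM at E14.5 and 4.67 or lower in the other 4 libraries. Of its 8, 7 were higher in Ttn nuclei. Fstl4 was 275 CPM at E14.5 (265 to 286), against 9.41 at E18.5, 2.51 for P5, 0.663 for adult muscle and 31.5 for KO.

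Further genes of this kind were also highest at E14.5. Kalrn, whose RNA is made in all 5 libraries, was 286 CPM at E14.5, against 93 at E18.5, 112 for P5, 78.4 for adult muscle and 87.5 for KO. Nectin3, an adhesion molecule (7 of 21, all 7 higher in Ttn nuclei), was 1430 CPM at E14.5, against 426 at E18.5, 111 for P5, 5.15 for adult muscle and 219 for KO. March11, a ubiquitin ligase gene (7 of 9, all 7 higher in Ttn nuclei), was 190 CPM at E14.5 and 46.4 or lower in the other 4. Tnnc1 was 363 CPM at E14.5, against 161 at E18.5, 28 for P5, 3.62 for adult muscle and 111 for KO, and Tmem108, a transmembrane protein gene with 2 E14.5-only peaks, was 1023 CPM at E14.5 and 137 or lower in the other 4. Rbfox1, Sox6 and Myh8 were not highest at E14.5. Rbfox1 was 1788 CPM at E14.5, against 1613 at E18.5, 2816 for P5, 6593 for adult muscle and 1658 for KO. Sox6 was 1395 CPM at E14.5, against 1488 at E18.5, 3073 for P5, 5943 for adult muscle and 1821 for KO, so both were highest in adult. Myh8 was 475 CPM at E14.5 and 3410 at E18.5, above its E14.5 level. Myh7 was highest at E14.5 by less than 2-fold, with 193 CPM at E14.5, against 116 at E18.5, 128 for P5, 20 for adult muscle and 44.3 for KO.

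In Pdgfra nuclei, Kif26b was 275 CPM at E14.5 (262 to 289), 8.33 at E18.5, 6.77 at P5, 0 in adult (no UMI, where 3 counts are 10.5 CPM) and 15.3 in KO. Col9a1 was 22.3 CPM at E14.5 and 7.35 CPM or lower at E18.5, P5 and in KO, with no UMI in adult (95% upper limit 12.9 CPM). Alx4 was 13.9 CPM at E14.5 and 6.46 CPM or lower at E18.5, P5 and in KO. Its adult level rests on 1 UMI, with an upper limit of 19.4 CPM, so it is not shown to be below the E14.5 level. Zfhx3, with most of its E14.5-only peaks on the Pdgfra side, was 771 CPM at E14.5 and 525 to 559 CPM in the other 4, a difference under 2-fold. Ptch1 was 182 CPM at E14.5, against 102 at E18.5, 102 for P5, 97.7 for adult muscle and 166 for KO, also under 2-fold.

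**Figure D5:**
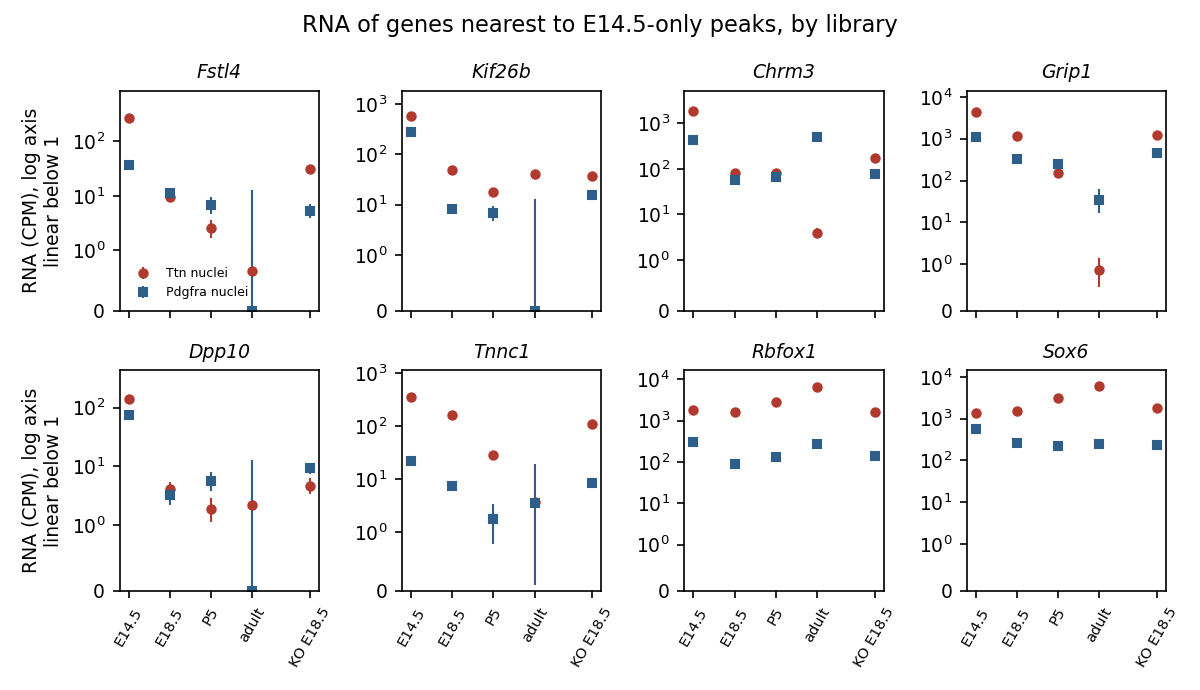
RNA level (CPM, log axis, linear below 1) of 8 nearest genes of E14.5-only peaks in Ttn nuclei (circles) and Pdgfra nuclei (squares) of each library, with exact Poisson 95% intervals. Fstl4, Kif26b, Chrm3, Grip1, Dpp10 and Tnnc1 are highest at E14.5 in Ttn nuclei, and Rbfox1 and Sox6 are highest in adult.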

How the data were processed

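The deposited counts are raw: UMIs for genes (introns counted) and ATAC counts for peaks in every nucleus. The authors ran Cell Ranger ARC 2.0.0 with default settings against mm10 (GRCm38), which called peaks separately per library. ATAC counts were mostly even (84.4%), so both ends of a fragment count and intervals are too narrow. Nuclei were kept with RNA between 400 and 25000 UMIs, a mitochondrial share below 10%, and ATAC below 70000 counts, as the study's methods state. A lower limit of 400 ATAC counts, which the study gives elsewhere, was an alternative only (1546 Ttn and 1051 Pdgfra nuclei). The E14.5 nuclei kept outnumber those the study states, and the KO library lists fewer barcodes than it states. Doublets were not called. The tables were read with Python 3.11.15, numpy 2.4.6, pandas 2.3.3 and scipy 1.17.1. Members are E14.5 peaks with no base shared with a peak of the other 4 libraries. Ratios are scaled to the set total, with exact conditional (Clopper-Pearson) 95% intervals, and CPM has exact Poisson 95% intervals. A count of 0 was set to 3 counts per set in ratios. Tied nearest genes all count. Named were the 10 genes with most members, 10 members per side by near bound, up to 4 genes per list and the 10 members with most counts. Other genes were chosen after their values were seen. Some items of these rules and lists are not reported here. Members and lists were chosen with earlier results of these data known. TMM factors (edgeR 4.0.16 in R 4.3.3) were an alternative only. Code was tested on simulated data. No genome sequence was used here, so sequence was read from RefSeq promoter windows only.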

Additional observations from a re-analysis of the deposited data

How the results depend on the processing

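With 1 library per group no replicate could be left out, and no paired analysis was possible because each group is 1 library. Of 53 alternative values for the summary results, 45 stayed within 1.5 times the count or within the counting interval of the share. Those that moved were as follows. Keeping E14.5-only peaks with at least 100 ATAC counts left 4957, of which 61.1% lay over 10 kb from a start-site interval. Of these 4957, 3065 were higher in Ttn nuclei (61.8%) and 434 in Pdgfra nuclei (8.76%). Without that limit 26.6% and 17.3% of all E14.5 peaks were. That background has no such minimum, so these shares are not compared at like counts. Counting a peak within 500 bp as shared gave 68.9% over 10 kb. The number higher in Pdgfra nuclei was 861 per nucleus with no depth scaling (9.21%, against 9.68% of all E14.5 peaks). With a minimum of 50 counts it was 710 of 7412 (9.58%, against 15.1% of all E14.5 peaks). At that minimum 58.3% were higher in Ttn nuclei, against 27.8% of all E14.5 peaks. Without the KO library 214 of 3364 nearest genes were above each other library at E14.5 in Pdgfra nuclei (6.36%, against 3.11% of all genes). Scaling by the peaks shared with all libraries moved the median log2 ratio of all E14.5 peaks to 0.10 and that of E14.5-only peaks to 1.12, and scaling per nucleus moved them to 0.59 and 1.61. The share of E14.5-only peaks higher in Ttn nuclei was then 52.3% and 62.1% (28.6% and 37.4% of all E14.5 peaks), and that higher in Pdgfra nuclei 14% and 9.21% (15% and 9.68% of all E14.5 peaks). For the 20 peaks ranked furthest to either side, 9 settings recomputed the ratio, and all 178 values with enough counts kept their direction and 2-fold call. These 20 were picked for ratios far from 1 in the same counts. Their calls were therefore likely to hold, which does not show how calls nearer 2-fold hold. Settings that only remove peaks cannot change a ratio: 17 of the 20 had at least 50 counts, 15 had no peak of another library within 500 bp and 14 had at least 100 ATAC counts. A motif count in 200 bases around each peak was not run, since it needs the genome sequence. The Ttn and Pdgfra calls under other definitions of an E14.5-only peak, and the comparison at like counts, were added after seeing the data.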
